A study of Homo sapiens with 33 samples.

Results

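The respiratory chain genes described here are the 89 nuclear protein-coding genes whose symbols name a structural subunit of complexes I to V of the inner mitochondrial membrane, out of 78932 gene identifiers measured. They were chosen by symbol alone: 39 NDUF genes counted as complex I, 4 SDH genes as complex II, 9 UQCR genes and CYC1 as complex III, 10 in all, 17 COX genes as complex IV and 19 ATP5 genes as complex V, the ATP synthase. Genes of assembly factors and pseudogenes were left out, and NDUFA4, known as a subunit of complex IV, was counted with complex I because of its symbol. The cells were HepG2, an established human liver cancer line, with no treatment and no genetic change named in the labels. The study sorted cells by cell-cycle stage and profiled replication timing and RNA from the same material. RNA was measured in 2 libraries, named replicates 2 and 3, of each of 6 sorted fractions, called G1, S1, S2, S3, S4 and G2, and in 3 libraries of unsorted bulk cells. A low-input kit for total RNA served for the sorted cells and a kit for mRNA for the bulk cells, so sorting, kit and RNA selection cannot be told apart in any comparison of the 2 kinds. The labels give nuclear RNA as the molecule for both.

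As background, complexes I and II pass electrons from NADH and succinate to ubiquinone, complex III passes them on to cytochrome c and complex IV to oxygen, and complex V uses the proton gradient that builds up to make ATP. All but complex II also hold subunits encoded in mitochondrial DNA, so the complexes are built from products of both genomes. Hepatocytes are rich in mitochondria, whereas many cancer lines draw part of their ATP from glycolysis. Some subunits exist as paralogs made in few tissues, such as the heart and muscle forms of complex IV subunits.

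Liver markers matched the label: 7 of 8 were well detected, with ALB at 1500 to 4887 TPM (a level corrected for gene length and scaled to sum to 1000000 in each library) in the sorted libraries and 14791 to 14867 TPM in bulk. The exception was APOB, listed at 0.0506 to 0.318 TPM in the sorted libraries. Markers of fibroblasts and endothelium stayed at or under 10.4 TPM, and of 5 leukocyte markers LYZ alone was high, at 174 to 441 TPM in the sorted libraries, while PTPRC was at or under 0.0440 TPM. Read counts recovered from the TPM values came to 6117382 to 18455335 per sorted library and 22332742 to 24413862 per bulk library. Of these, 13001 to 42327 reads in a sorted library and 130715 to 145171 in a bulk library fell on the 89 genes. Nuclear protein-coding genes held 11.2% to 15.6% of all TPM in the sorted libraries and 76.9% to 77.8% in bulk. For this reason the comparison with bulk was also made on a scale on which the nuclear protein-coding genes of each library sum to 1000000, called the nuclear scale below. Nothing in the labels says whether replicates came from separate cultures, so the p-values rest on the spread from library to library, and that spread may be technical only.

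Promoter sequence was looked at first because NRF1, a transcription factor, is known to bind in front of many respiratory chain genes. RefSeq (GRCh38.p14) windows of 250 bases before to 50 bases after the gene start were matched for 71 of the 89 genes. The NRF1 letters GCGCATGCG, on either strand, stood in 10 of these 71 windows (14.1%), against 2.10% of all 27305 promoters in the table and 2.76% of the 15843 protein-coding ones. The ETS letters CCGGAAGT, read by GABPA among others, also stood in 10 windows (14.1%, against 4.44% of all), and the YY1 letters AAGATGGCG in 8 (11.3%, against 1.85%). Of the protein-coding promoters, 6.19% held the ETS letters and 2.74% the YY1 letters. None of the 3 strings contains another, and a match is a description of these letters, not of binding. Among the 10 genes with the NRF1 letters were 4 of complex I (NDUFA8, NDUFB4, NDUFS6 and NDUFS7), SDHD of complex II, COX6A1 of complex IV and 4 of complex V (ATP5F1C, ATP5MC2, ATP5ME and ATP5PF). The stretches around the match are shown for the gene with the highest bulk level in each of these complexes that has a match before its start, since the levels of these 4 genes recur below. They are on the plus strand, 5′ to 3′, with the NRF1 letters in capitals.
NDUFS6, chr5:1801335-1801395: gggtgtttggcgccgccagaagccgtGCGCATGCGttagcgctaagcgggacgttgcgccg
SDHD, chr11:112086737-112086797: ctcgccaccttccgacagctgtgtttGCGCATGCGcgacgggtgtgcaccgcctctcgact
COX6A1, chr12:120437868-120437928: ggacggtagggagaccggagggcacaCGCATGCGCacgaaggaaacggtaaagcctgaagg
ATP5F1C, chr10:7788129-7788176: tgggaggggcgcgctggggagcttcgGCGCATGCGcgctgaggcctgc
The match starts 46 bases before the start of NDUFS6, 110 before that of SDHD, 219 before that of COX6A1, where it is on the opposite strand, and 22 before that of ATP5F1C.

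In bulk cells the respiratory chain genes were abundant, and the catalytic β subunit of ATP synthase stood far above the rest. The 89 genes summed to 9847, 9887 and 9994 TPM in the 3 bulk libraries. Of these, 62 were at 10 TPM or more in every bulk library and 30 at 100 TPM or more. ATP5F1B, the β subunit, was at 1811 ± 19.2 TPM (SD, n = 3) and made up 43.5% to 44.1% of the summed complex V level. The next highest member was NDUFS5, an accessory subunit of complex I, at 509 ± 24.0 TPM. UQCRH, the hinge protein of complex III, followed at 423 ± 7.65 TPM, above ATP5F1C, the γ subunit of complex V, at 397 ± 9.54 TPM. In complex IV the highest were COX8A at 318 ± 10.03 TPM and COX5A at 271 ± 3.17 TPM, and in complex II the membrane anchors SDHC at 156 ± 3.28 TPM and SDHD at 59.1 ± 1.13 TPM. Each of these levels is per length of the gene model behind the files, and those lengths ran from 421 bases for NDUFA1 to 19359 bases for NDUFA10.

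In the sorted fractions the 89 genes summed to 723 to 1069 TPM, and the order within the set was different. CYC1, cytochrome c1 of complex III, had the highest mean over the 12 libraries, at 80.7 ± 51.7 TPM (SD, n = 12), but its place depended on the replicate. In replicate 2 it was at 99.2 to 172 TPM and above NDUFS5 in 6 of 6 libraries, and in replicate 3 at 26.2 to 44.5 TPM and below NDUFS5 in 6 of 6. NDUFS5 was at 61.8 ± 9.27 TPM and ATP5F1B at 37.6 ± 5.18 TPM. The ranges of NDUFS5 (48.4 to 79.1 TPM) and ATP5F1B (29.1 to 47.4 TPM) did not overlap. NDUFB7, an accessory subunit of complex I, was at 32.7 ± 8.63 TPM and ATP5ME, subunit e of complex V, at 29.9 ± 4.93 TPM. COX4I1 (25.6 ± 3.88 TPM) and COX7C (19.6 ± 2.90 TPM) led complex IV, UQCRH (23.5 ± 5.08 TPM) came second in complex III, and SDHC (8.22 ± 1.28 TPM) and SDHA, the flavoprotein, (3.87 ± 0.861 TPM) led complex II. Only 18 of the 89 genes were at 10 TPM or more in all 12 sorted libraries.

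**Figure D1:**
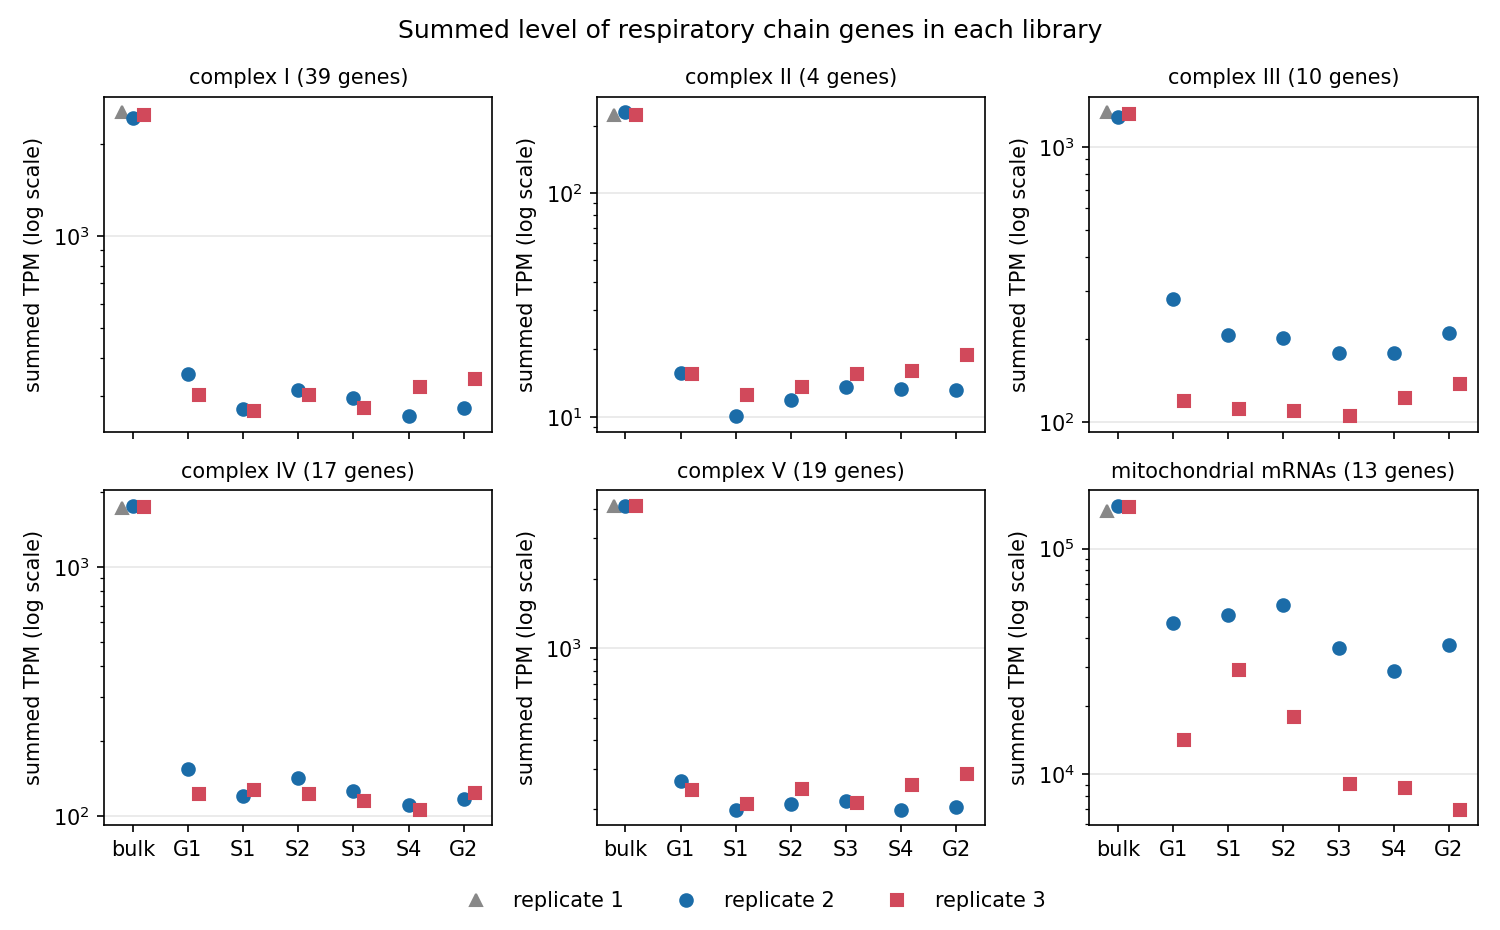
Summed TPM (vertical axis, log scale) of the genes of each complex and of the 13 mitochondrially encoded mRNAs, with 1 point per library and the 7 groups on the horizontal axis. For complex V the sorted libraries lie between 198 and 285 TPM against 4120 to 4155 TPM in bulk, and for complex III replicate 2 (179 to 280 TPM) lies above replicate 3 (105 to 138 TPM) in each fraction.

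The set was not measured in full. In all 15 libraries 4 of 89 genes were listed at 0: NDUFB10, the read-through gene NDUFC2-KCTD14, COX6A2, the heart and muscle form of a complex IV subunit, and COX8C. A further 7 stayed under a mean of 1 on every scale: NDUFA3, NDUFA6, NDUFB9, NDUFS3, COX5B, COX6B2 and COX7B2. COX6A2, COX6B2, COX7B2 and COX8C are paralogs known from muscle or testis. NDUFB10, NDUFS3 and COX5B, by contrast, are subunits of which no other form is counted here, and NDUFS3 is a core subunit of complex I. NDUFS3 was listed at 0 to 0.0365 TPM in bulk and 0 to 0.116 TPM in the sorted libraries, and COX5B at 0 in bulk and 0 to 0.279 TPM in the sorted libraries. SDHB, the iron-sulfur subunit of complex II, was at 0.116 to 0.294 TPM in bulk. Such values say only what the files list, as with APOB above. In RefSeq the spans of 37 of the 89 genes overlap another gene, and whether strand was used in counting is not stated.

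On the deposited scale 65 of the 73 genes tested were lower in the sorted fractions than in bulk and 6 were higher (limma, Benjamini-Hochberg adjusted p under 0.05). Over all genes tested, 80.9% were called, 57.8% lower and 23.1% higher. The median difference on the log2(TPM + 1) scale was -2.98 over the 73 genes, -1.74 over nuclear protein-coding genes and -0.99 over all genes. The genes of the set thus lay below the median of the protein-coding genes. As examples, ATP5F1B was at 1798 to 1833 TPM in bulk and 29.1 to 47.4 TPM in the sorted libraries, COX8A at 307 to 326 TPM and 1.66 to 10.03 TPM, and SDHD at 58.00 to 60.3 TPM and 0.976 to 2.42 TPM. No library of one kind reached the range of the other for these 3 genes. In all, 63 of the 89 genes had every sorted library below every bulk library in TPM and 5 had every sorted library above. The same count over all genes was not made in TPM, so these numbers have no background and are a description only. With median-ratio scaling the median of all genes moved to 0.30 and the split of the called genes was 55 lower and 9 higher, against 33.7% and 41.1% of all genes. With recovered reads per nuclear protein-coding read it was 48 lower and 15 higher, against 20.0% and 62.8% of all genes. In bulk material a smaller share of cells that make an RNA and less of it per cell cannot be told apart.

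Among nuclear protein-coding genes alone, the set lay low in the sorted fractions, but with wide differences between its genes. On the nuclear scale 42 of 78 genes tested were lower in the sorted fractions and 17 higher, against 16.5% of all genes called lower and 55.1% called higher, 71.6% in all. The median difference was -0.56 over the set and 0.79 over all genes tested. Median-ratio scaling moved the median of all genes to 0.11 and that of the set to -1.30. Under it 53 genes of the set were lower and 14 higher, against 4389 lower and 4708 higher of 12998 genes tested. Every sorted library lay below every bulk library for 41 genes of the set (14.6% of all genes tested) and above for 17 (46.5%). The members' share of the nuclear protein-coding TPM was 1.28% in each bulk library and 0.585% to 0.708% in the sorted libraries. Across the 78 genes the difference had a Spearman correlation of 0.24 with the length of the gene model, a description only, since all values come from the same libraries.

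The complexes differed in how many genes moved each way. In complex IV 9 of 12 genes tested were lower and 0 higher, with a median of -0.95, and in complex III 5 of 10 were lower and 1 higher, with a median of -0.85. In complex V 10 of 19 were lower and 3 higher (median -0.46). In complex I 16 of 33 were lower and 11 higher (median -0.06), and in complex II 2 of 4 were lower and 2 higher. No test compared the complexes with each other. Among the 10 genes with the NRF1 letters the median difference was -1.67, and differences ran from -2.87 for ATP5MC2 to 1.42 for NDUFS7. The 4 genes whose sequences are shown above were lower, with NDUFS6 at -0.83 ± 0.18 (adjusted p = 0.0015) and COX6A1 at -2.25 ± 0.33 (adjusted p = 7.7e-05). These 4 were picked by their bulk level, which enters the difference, so their direction is a description only. The median was -0.46 over the 9 genes tested with the ETS letters and 0.64 over the 7 with the YY1 letters. Whether any of the letters go with the difference was not tested. On the nuclear scale the summed level of complex V in the sorted libraries was 33.7% of that in bulk, comparing medians over libraries, and that of complex I 73.0%. Without ATP5F1B the value for complex V was 49.8%.

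**Figure D2:**
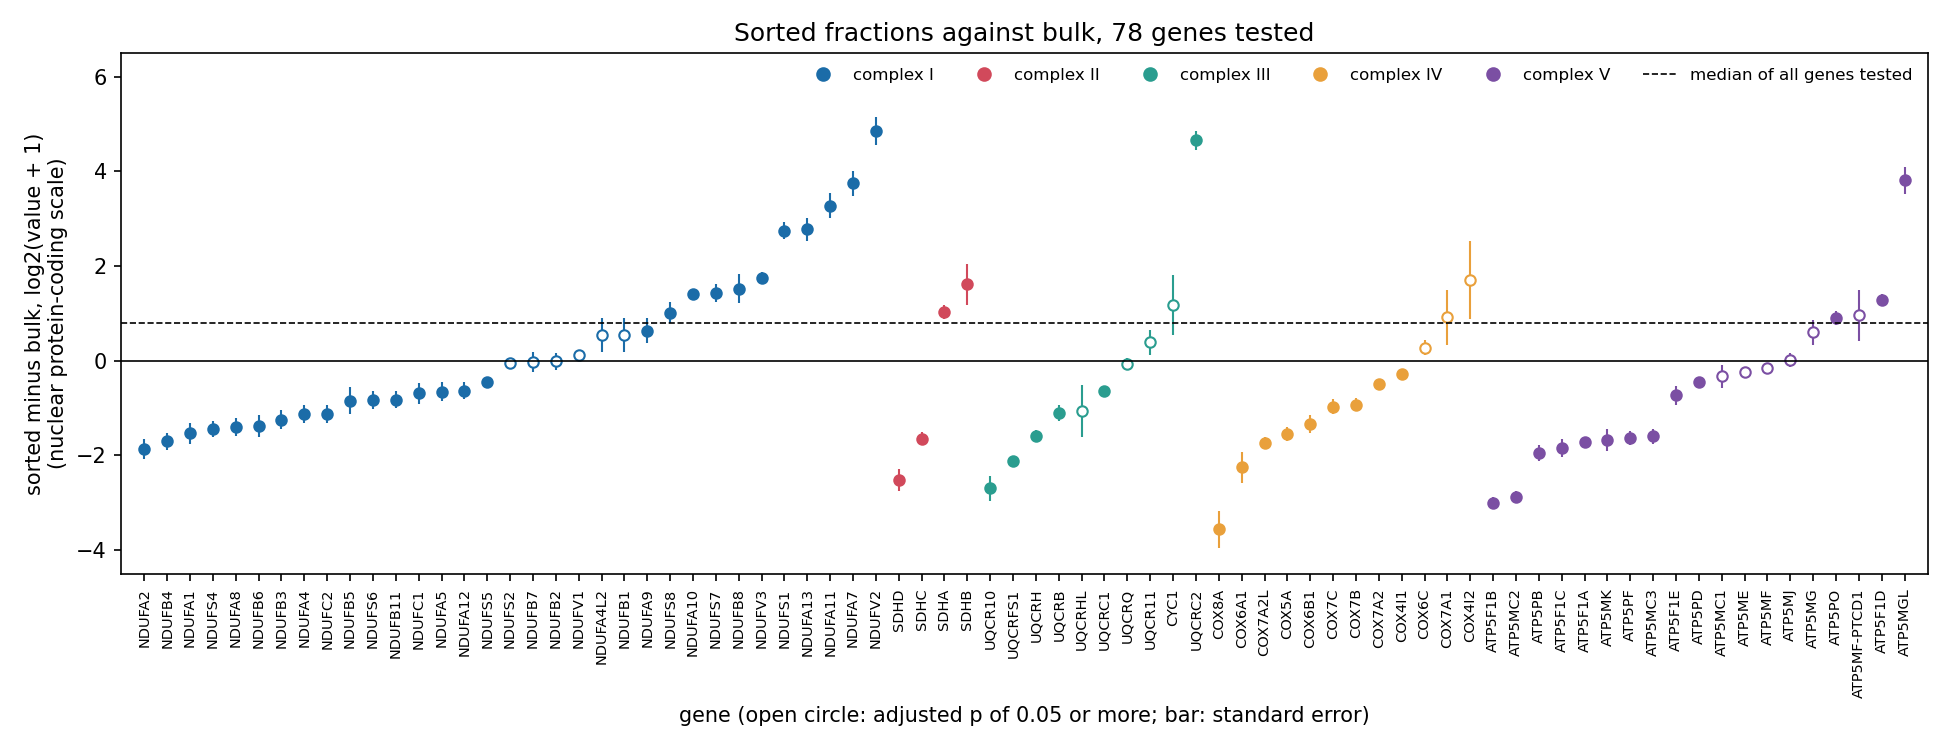
Difference of the 6 sorted fractions from bulk on the nuclear scale, as log2(value + 1), for the 78 genes tested, ordered within each complex; bars are standard errors, filled circles passed an adjusted p of 0.05 and the dashed line is the median of all genes tested (0.79). Values run from -3.56 for COX8A to 4.86 for NDUFV2, and no gene of complex IV that passed lies above 0.

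In complex I, the accessory subunit NDUFA2 showed the lowest difference, at -1.86 ± 0.21 (SE, adjusted p = 8.1e-06). It was at 114, 124 and 130 TPM in bulk and 3.72 to 7.12 TPM in the sorted libraries, with no overlap. NDUFS5 was lower by less, with a difference of -0.45 ± 0.10 (adjusted p = 0.0017), while that of NDUFA1, another small accessory subunit, was -1.54 ± 0.22 (adjusted p = 7.1e-05). NDUFB7 showed a difference of -0.03 ± 0.21 (adjusted p = 0.89) and overlapped with bulk. At the other end stood NDUFV2, an iron-sulfur subunit of the module that takes electrons from NADH, with 4.86 ± 0.30 (adjusted p = 5.6e-08). NDUFV2 was at 1.09, 1.58 and 2.00 TPM in bulk and 5.91 to 18.3 TPM in the sorted libraries, so it was higher there on the TPM scale as well. Its bulk values rest on 18, 24 and 30 reads, and the recovered reads per nuclear protein-coding read were 38.3 times as many in the sorted libraries (95% exact interval 30.3 to 49.1, counting error only). The antisense gene NDUFV2-AS1 shares its locus and was at 1.08 to 3.46 TPM in the sorted libraries, and the pseudogene NDUFV2P1 was at 12.5 to 15.5 TPM in bulk and 0.189 to 1.95 TPM in the sorted libraries. Their part in the NDUFV2 values was not tested.

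In complex II the difference ran in opposite directions for genes of the same complex. SDHD, a membrane anchor, showed -2.52 ± 0.24 (adjusted p = 2.2e-06) and SDHC, the other anchor, -1.64 ± 0.13 (adjusted p = 4.8e-07). SDHA, at 10.5 to 11.2 TPM in bulk and 2.41 to 5.69 TPM in the sorted libraries, showed 1.03 ± 0.15 on the nuclear scale (adjusted p = 7.6e-05). SDHB, counted above as the other higher gene of complex II, had a fitted difference of 1.61 ± 0.42, but it was under 1 TPM in every library and passed the filter only through the sorted libraries.

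In complex III, UQCR10, a small subunit, showed the lowest difference at -2.69 ± 0.26 (adjusted p = 2.7e-06), from 292, 307 and 322 TPM in bulk to 4.62 to 15.9 TPM in the sorted libraries. UQCRFS1, the Rieske iron-sulfur protein, was at 99.0 to 103 TPM in bulk and 3.14 to 4.83 TPM in the sorted libraries, and its difference was -2.12 ± 0.12 (adjusted p = 2.4e-08). UQCRH showed -1.59 ± 0.12 (adjusted p = 3.0e-07). UQCRC2, a core protein, went the other way at 4.66 ± 0.21 (adjusted p = 4.9e-09), from 0.740 to 1.00 TPM in bulk, resting on 19 to 28 reads, to 4.34 to 8.84 TPM in the sorted libraries. UQCRC1, its partner in the core, was at 119 to 124 TPM in bulk and showed -0.63 ± 0.09 (adjusted p = 7.9e-05). CYC1 is described below with the replicates.

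In complex IV, COX8A showed the lowest difference of the whole set, at -3.56 ± 0.39 (adjusted p = 7.2e-06). Its sorted values ran from 1.66 to 10.03 TPM with a median of 4.67 TPM, below all 3 bulk libraries. COX5A, which was at 269 to 275 TPM in bulk and 11.6 to 19.6 TPM in the sorted libraries, showed -1.55 ± 0.15 (adjusted p = 2.5e-06), and COX7C -0.97 ± 0.15 (adjusted p = 0.00014). COX4I1 was the least lowered gene that passed, at -0.29 ± 0.10 (adjusted p = 0.021), and it no longer passed when any 1 of the 3 bulk libraries was left out (-0.29 to -0.28). In complex V, ATP5F1B showed -2.998 ± 0.109 (adjusted p = 1.3e-09) and its share of the complex V sum was 12.8% to 19.6% in the sorted libraries. ATP5F1C showed -1.84 ± 0.19 (adjusted p = 4.6e-06), whereas ATP5ME showed -0.25 ± 0.10 and lay at the threshold (adjusted p = 0.0501), which it passed in 10 of the alternative fits. ATP5MGL, a gene related to that of subunit g, had a fitted difference of 3.81 ± 0.28, but its bulk values rest on 1, 1 and 2 reads and it passed the filter only through the sorted libraries. Its recovered reads per nuclear protein-coding read were 42.1 times as many in the sorted libraries. That value is a description only, since high sorted values are the reason the gene was tested.

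The genes higher in the sorted fractions had low bulk levels. Of the 17 higher on the nuclear scale 9 had a bulk mean under 5 TPM, and the highest bulk mean among them was 42.9 TPM. Of the 42 lower ones 0 had a bulk mean under 5 TPM, and their median bulk mean was 154 TPM. Since the bulk values enter both the level and the difference, these counts are a description. The filter adds to them: ATP5MGL, NDUFA11 and SDHB, 3 of the 17, had a bulk mean under 1 on the nuclear scale and were tested only because of their sorted values. All 6 genes higher on the deposited scale (NDUFS1, NDUFA11, NDUFA7, ATP5MGL, UQCRC2 and NDUFV2) had a bulk mean of 0.119 to 1.56 TPM. Of these 6, ATP5MGL, NDUFA11 and UQCRC2 had a bulk mean under 1 TPM and were tested on that scale only because of their sorted values.

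The paralogs of the set were seen in unequal amounts. Subunit c of ATP synthase, the protein of the rotating ring, is encoded by ATP5MC1, ATP5MC2 and ATP5MC3, which are known to give the same mature protein. In bulk, ATP5MC3 was at 216, 221 and 221 TPM, ATP5MC2 at 188, 190 and 193 TPM and ATP5MC1 at 103, 109 and 109 TPM. In the sorted libraries ATP5MC1 was at 7.82 to 21.4 TPM with a median of 14.04 TPM, ATP5MC3 at 7.85 to 16.1 TPM with a median of 12.3 TPM and ATP5MC2 at 3.10 to 5.49 TPM with a median of 4.18 TPM. Thus ATP5MC1 was the lowest of the 3 in every bulk library and lay above ATP5MC2 in 12 of 12 sorted libraries. The log2 ratio of ATP5MC1 to ATP5MC2, on the log2(TPM + 1) scale, was -0.82 ± 0.05 in bulk (SD, n = 3) and 1.54 ± 0.47 in the sorted libraries (SD, n = 12). That difference of 2.36 had an exact two-sided permutation p of 0.0044 over 455 arrangements, the smallest these group sizes allow. ATP5MC1 to ATP5MC3 changed by 1.26 and ATP5MC3 to ATP5MC2 by 1.11, each with an exact permutation p of 0.0044 and an adjusted p of 0.0044 over the 3 ratios. These ratios depend on each other, since on the log2 scale ATP5MC1 to ATP5MC2 is the sum of the other ones. The permutation treated all libraries as exchangeable, although sorted libraries with the same replicate number deviated together. How many other gene pairs reach this smallest p was not counted. The ratio of ATP5MC1 to ATP5MC2 was 0.76 to 1.66 in the replicate 2 libraries and 1.74 to 2.16 in those of replicate 3, above bulk in both.

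**Figure D3:**
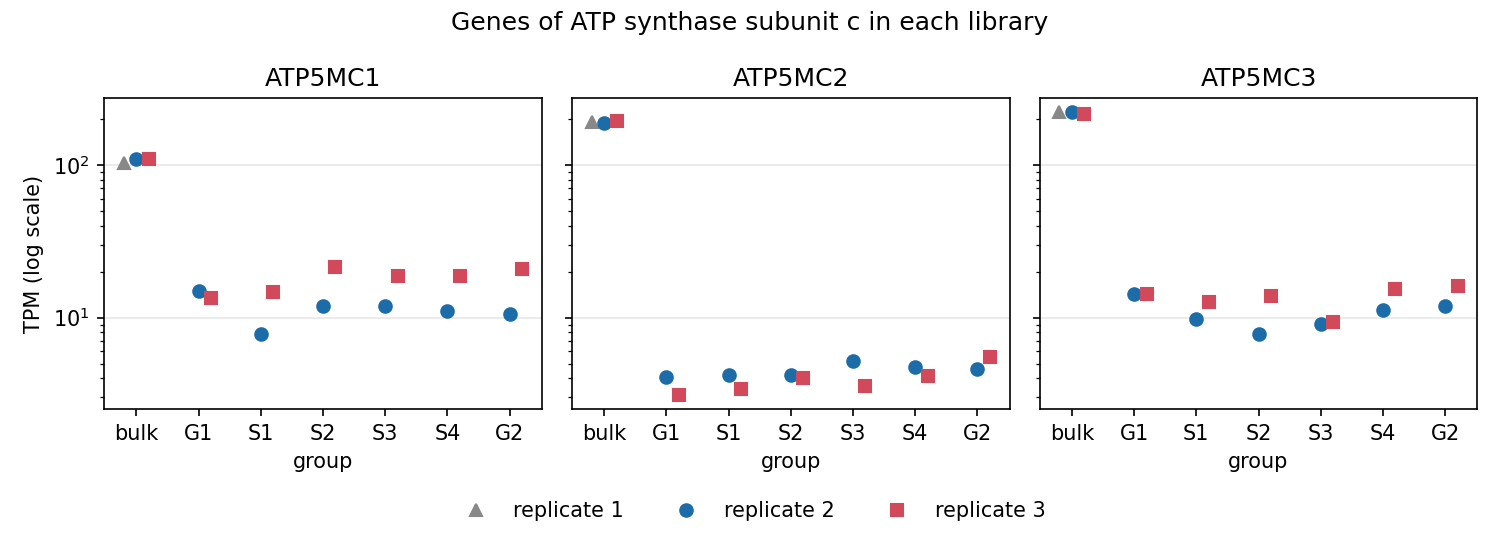
TPM (vertical axis, log scale) of the 3 genes of ATP synthase subunit c in each library, by group and replicate. ATP5MC2 is at 188 to 193 TPM in bulk and at 3.10 to 5.49 TPM in the sorted libraries, a wider gap than that of ATP5MC1.

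In most of the other pairs 1 form dominated, with COX7A2 and COX7A2L as the exception. COX4I1 was at 184 to 189 TPM in bulk, where COX4I2, the lung form, was at 0 to 0.267 TPM, and COX4I2 reached at most 2.41 TPM in a sorted library. COX6A1 was at 175 to 189 TPM in bulk and 3.03 to 10.2 TPM in the sorted libraries, with COX6A2 listed at 0 throughout. COX7A2 was at 96.7 to 105 TPM and COX7A2L, which is known to take part in joining complexes into supercomplexes, at 84.5 to 89.4 TPM in bulk, while COX7A1, the muscle form, was listed at 0 in bulk and at 0 to 1.51 TPM in the sorted libraries. On the nuclear scale COX7A2 showed -0.50 ± 0.10 (adjusted p = 0.0010) and COX7A2L -1.73 ± 0.12 (adjusted p = 1.6e-07). COX6B1 was at 232 to 250 TPM and COX6B2 at 0.0970 to 0.288 TPM in bulk. NDUFA4 was at 89.4 to 94.0 TPM and NDUFA4L2 at 1.34 to 2.06 TPM in bulk. UQCRH was at 416 to 431 TPM and UQCRHL, a near copy of it whose reads may be shared with it, at 11.6 to 14.2 TPM in bulk.

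On the deposited scale no gene of the set was called different among the cell-cycle fractions, with or without the replicate number as a block, and 2 genes were called in fits that joined the block with another scale (below). In the test for any difference among the 6 fractions 0 of 73 genes passed, against 0.0176% of all genes tested, and 0 of the 73 had an unadjusted p under 0.05. G2 against G1 gave 0 of 73 (0.00587% of all genes), with 1 gene at an unadjusted p under 0.05. The mean of S1 to S4 against G1 and the slope over S1 to S4 each gave 0 of 73 (0.0% of all genes) and 0 genes at an unadjusted p under 0.05. With recovered read counts and limma voom the counts of calls were 0 in all 4 tests as well. These tests had 2 libraries per fraction. The median standard error of a gene of the set was 0.32 for G2 against G1 and 0.26 for S against G1, in log2 units. Small differences could not have been called, and a larger one, that of ATP5MGL at -1.16 for G2 against G1, was not called either. Of 10345 nuclear protein-coding genes tested 0 were called in each of the 4 tests. The 0 calls in the set therefore do not show that its levels were stable.

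The sizes of the differences were small for most genes. For G2 against G1 the middle of the 73 genes ran from -0.23 to 0.05 (quartiles), with a median of -0.08, equal to that of all genes at -0.08. Without G2 replicate 2 the median of the set was 0.14, with 43 genes above 0, and without G2 replicate 3 it was -0.24, with 63 below, so its sign rests on 1 library. The lowest was ATP5MGL at -1.16 ± 0.39 (unadjusted p = 0.014, adjusted p = 1.0), at 3.79 and 4.33 TPM in G1 and 1.24 and 1.29 TPM in G2. The highest was NDUFB4, an accessory subunit of complex I, at 0.44. For S against G1 65 of 73 genes were below 0 with a median of -0.17, and the median of all genes was -0.20. On the nuclear scale the same comparison gave 39 genes above 0 and 39 below. The slope over S1 to S4 had a median of 0.01 per fraction and ran from -0.26 for UQCR10 to 0.28 for UQCR11. Its median became 0.06 when S4 replicate 2 was left out and -0.03 when S4 replicate 3 was left out, a change of sign. In G1 the 89 genes summed to 1069 and 804 TPM, in S1 to 810 and 730 TPM, in S2 to 881 and 795 TPM, in S3 to 833 and 723 TPM, in S4 to 760 and 820 TPM and in G2 to 821 and 906 TPM, for replicates 2 and 3 in that order. The fractions overlapped.

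Samples with the same replicate number deviated together, so the number was also used as a block. With the block 0 of 73 genes passed in each of these 4 tests, and the smallest adjusted p was 0.36, for S against G1. When the block was combined with the nuclear scale, COX6B1, a subunit of complex IV, passed for the slope over S1 to S4, at -0.26 ± 0.05 per fraction (adjusted p = 0.031, limma). That fit called 1 of 78 genes of the set and 1.85% of all genes. COX6B1 also passed with the block and recovered read counts, at -0.27 ± 0.07 (adjusted p = 0.019), where 1 of 73 genes of the set and 4.11% of all genes were called. COX6B1 was at 19.3 and 17.4 TPM in S1, 25.5 and 17.0 TPM in S2, 15.3 and 8.996 TPM in S3 and 14.3 and 11.2 TPM in S4. With the block on the deposited scale its slope was -0.23 ± 0.09 with an adjusted p of 0.61. With the block and recovered counts CYC1 passed the test for any difference among the fractions (adjusted p = 0.040), as did 3.81% of all genes. These shares of the set lie below those of all genes. The combined fits were chosen with the other results in view.

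Within the sorted libraries more genes of the set were called between replicates 2 and 3 than among the fractions. The replicate comparison set 6 libraries against 6, with a median standard error of 0.15, against 0.32 for G2 against G1. The numbers of calls therefore do not compare the sizes of the differences. Of 73 genes tested, 10 passed the test of replicate 3 against replicate 2, 7 higher and 3 lower in replicate 3, against 18.0% of all genes called higher and 6.99% called lower. The share of the set that passed was thus below that of all genes (25.0%) in this fit. With no filter on low values it was above, at 5 of 85 (5.88%) against 2.95%. With median-ratio scaling the split was 7 higher and 14 lower of 73, against 16.6% and 16.5% of all genes, and on the nuclear scale 16 higher and 9 lower of 78, against 33.6% and 12.3% of all genes. Across all 6 fractions 11 of the 73 genes were higher in replicate 3 each time, against 19.8% of all genes, and 3 were lower each time, against 7.57%. The mitochondrially encoded mRNAs, the other part of the respiratory chain, were lower in replicate 3 for 13 of 13 genes with a median of -1.70, and glycolysis genes for 11 of 12 tested with a median of -0.75. The median of the 73 nuclear genes was 0.15.

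CYC1 was the gene of the set with the largest difference between replicates. In replicate 2 it was at 172 TPM in G1, 137 in S1, 114 in S2, 99.2 in S3, 109 in S4 and 131 in G2. In replicate 3 it was at 37.5 TPM in G1, 31.7 in S1, 28.6 in S2, 26.2 in S3, 37.8 in S4 and 44.5 in G2. All 6 replicate 2 libraries thus lay above all 6 of replicate 3, and in each replicate the lowest value was in S3. The fitted difference on the log2(TPM + 1) scale was -1.85 ± 0.12 (adjusted p = 8.7e-05), and it ran from -2.17 in G1 to -1.51 in S4. Of 10345 nuclear protein-coding genes tested 23 had a lower mean difference. In bulk CYC1 was at 163, 175 and 187 TPM.

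CYC1 also decided comparisons of the whole complex. It made up 55.5% to 65.8% of the summed complex III level in replicate 2, 24.9% to 32.4% in replicate 3 and 12.7% to 13.9% in bulk. Without it the other 9 genes of complex III summed to 70.1 to 108 TPM in replicate 2 and 79.0 to 93.0 TPM in replicate 3. On the nuclear scale the 89 genes together were higher in replicate 2 in 6 of 6 fractions, and without CYC1 in 2 of 6. Against bulk on the nuclear scale CYC1 showed 1.17 ± 0.63 (adjusted p = 0.12), and with the replicate block 1.22 (adjusted p = 0.0028). That block gave bulk and sorted libraries of the same number a common shift, and the labels do not say that these numbers are linked. Replicate 2 libraries alone gave 2.12 (adjusted p = 1.6e-08) and replicate 3 libraries alone 0.22 (adjusted p = 0.072).

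CYC1 lies at chr8:144095076-144097525 in RefSeq (GRCh38.p14), and no other RefSeq gene overlaps it. Of the nearest protein-coding genes on either side with values, SHARPIN was at 16.2 to 25.8 TPM in replicate 2 and 12.8 to 24.0 TPM in replicate 3, and GPAA1 at 4.29 to 6.22 and 4.92 to 6.99 TPM. EXOSC4 was higher in replicate 3 in 5 of 6 fractions, at 1.504 to 4.13 TPM in replicate 2 and 2.40 to 5.96 TPM in replicate 3. MAF1 was lower in replicate 3 in 6 of 6 fractions, at 12.7 to 17.2 TPM against 5.08 to 9.30 TPM. What else differs between the replicates was not tested here beyond the values given: mitochondrial transcripts held 8.66% to 16.7% of TPM in the replicate 2 libraries and 2.22% to 9.97% in those of replicate 3.

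**Figure D4:**
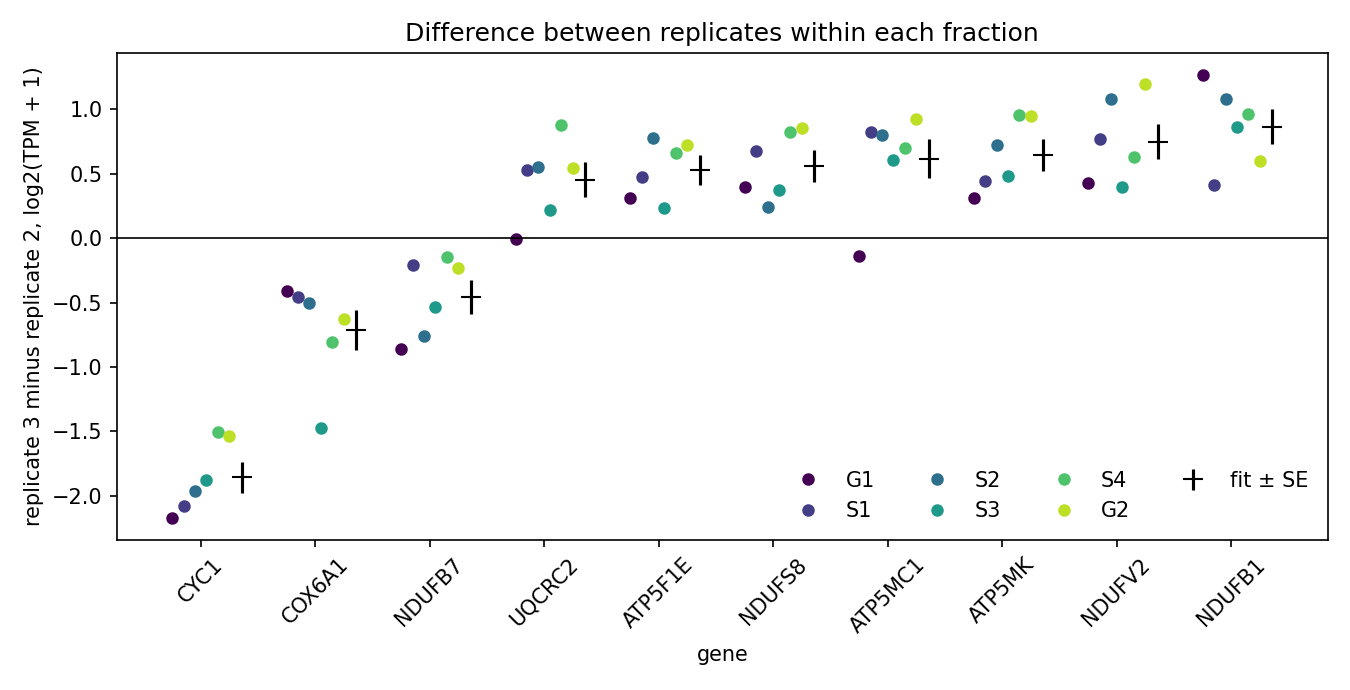
Replicate 3 minus replicate 2 on the log2(TPM + 1) scale for the 10 genes that passed, with 1 point per fraction and the fitted value with its standard error in black. CYC1 is below -1.5 in all 6 fractions, and UQCRC2 and ATP5MC1 have 1 fraction each, G1, at or below 0.

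The other genes that passed differed by less than CYC1. COX6A1, of complex IV, was lower in replicate 3 by 0.71 ± 0.16 on the log2 scale, a difference of -0.71 (adjusted p = 0.013), and NDUFB7 of complex I showed -0.46 ± 0.13 (adjusted p = 0.034). Both were lower in 6 of 6 fractions. NDUFB7 no longer passed in 9 of the 12 fits that left out 1 library. The highest were NDUFB1, an accessory subunit of complex I, at 0.86 ± 0.14 (adjusted p = 0.0039), NDUFV2 at 0.75 ± 0.14 (adjusted p = 0.0070) and ATP5MK, a small subunit of the ATP synthase dimer, at 0.64 ± 0.12 (adjusted p = 0.0085), each higher in 6 of 6 fractions. The remaining 4 were ATP5MC1, NDUFS8, ATP5F1E and UQCRC2, at 0.45 to 0.62.

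Gene lists next to the set were taken as context, and their counts on the nuclear scale stand against 55.1% of all genes called higher and 16.5% called lower. Of 54 assembly factors, which build the complexes and are not part of them, 29 of 52 tested were higher and 7 lower in the sorted fractions on the nuclear scale (median 0.60, against 0.79 for all genes), shares near those of all genes. Of the mitochondrial ribosomal proteins, which make the subunits encoded in mitochondrial DNA, 20 of 76 were higher and 28 lower (median -0.08). Of the cytosolic ribosomal proteins, 6 of 82 were higher and 72 lower (median -1.80). Electron carriers and ubiquinone synthesis genes gave 7 of 15 higher and 2 lower (median 0.63), regulators of mitochondrial biogenesis 7 of 13 higher and 4 lower (median 0.61), glycolysis genes 4 of 16 higher and 6 lower (median -0.55), and 5 subunits or partners of the complexes whose symbols fall outside the rule 1 higher and 4 lower. The median of the respiratory chain set (-0.56) was thus near that of the glycolysis genes (-0.55). It lay between that of the cytosolic ribosomal proteins and that of the mitochondrial ribosomal proteins. The mitochondrially encoded mRNAs, on the deposited scale, were lower in the sorted fractions for 12 of 13 (median -3.08), against 57.8% of all genes. Divided by the nuclear protein-coding sum they were not lower throughout, and the direction depended on the replicate. Their sum was 254337 to 431445 in the replicate 2 libraries, all above the 188961 to 201541 in bulk, and 44691 to 257687 in those of replicate 3. Of the 13, 0 had every sorted library below every bulk library and 1 had every sorted library above. Between replicates, 10 of 50 assembly factors and 23 of 72 mitochondrial ribosomal proteins were higher in replicate 3, with 0 and 1 lower, against 18.0% of all genes higher and 6.99% lower.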

How the data were processed

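The deposited files hold log2 values per Ensembl gene identifier, which are log2(TPM + 1), since 2 to the power of each value minus 1 sums to 1000000 per library. Per the submitters' processing notes, cutadapt, Trimmomatic, HISAT2, BWA, SAMtools and hg38 were used. How genes were counted, and with which annotation, is not stated. Of 33 samples, 18 Repli-seq ones were left aside. Groups and replicate numbers come from the labels. Symbols, positions and promoters were matched to gene tables and RefSeq (GRCh38.p14). 61481 of 78932 identifiers have a symbol.

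limma 3.58.1 in R 4.3.3 (lmFit and eBayes with trend, no replicate term) was fitted to log2(TPM + 1) over all genes with a mean of at least 1 in the libraries of the fit and p-values were adjusted after Benjamini-Hochberg (threshold 0.05). All 12 sorted libraries entered the fits among fractions, and all 15 the fit against bulk. A pseudocount of 1 understates changes of low genes. Read counts were recovered from the steps of the TPM values for 50309 of the 50310 genes with values in 3 or more libraries (99.2% of lengths whole within 0.01 base) and used with voom as an alternative, with nuclear protein-coding reads as library size. The limma fits were tested on simulated data with independent noise in each library. Noise shared by libraries of the same replicate number was not simulated, so that test does not cover it. Replicates paired: the difference of replicate 3 from 2 correlated between fractions at 0.31 to 0.38 in 15 of 15 pairs. No replicate pair agreed within sampling noise. Named genes were, per complex, the 2 highest in sorted and in bulk libraries and the extremes of the difference from bulk, then the paralogs, the extremes between replicates and the genes under the filter; UQCRFS1, UQCRC1 and genes beside CYC1 were added after values were seen. The members and lists were chosen with earlier results of these data known. No protein sequences were used here.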

Additional observations from a re-analysis of the deposited data

How the results depend on the processing

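The alternatives changed the pseudocount (0.1), the filter (none, or a mean of at least 5), the trend, the scaling, the unit, the replicate term and the libraries. For the 73 genes on the deposited scale, 69 to 72 were called against bulk when 1 library was left out, and on the nuclear scale 54 to 62; with the replicate block 71 and 60 were called. Among the fractions, leaving out 1 library gave 0 calls in each of the 4 tests, and so did the replicate block (0). The block with recovered counts gave 1 call for any difference (CYC1) and 1 for the slope (COX6B1), and the block with the nuclear scale gave 1 for the slope, where 3.81%, 4.11% and 1.85% of all genes were called; the cause was not tested. For replicate 3 against replicate 2, with 10 calls, there were 5 with no filter, 21 with median-ratio scaling, 25 with recovered counts and 25 on the nuclear scale (2.95%, 33.1%, 42.4% and 45.9% of all genes), and 6 to 10 when 1 library was left out, 6 of them without S2 replicate 2. The fall from 10 to 5 came with a larger number of genes tested. What caused this fall and the other changes was not tested. The summed level of the 89 genes in the sorted libraries was 8.24% of bulk in TPM and 50.4% on the nuclear scale, which is rescaled by construction. Of the genes named against bulk on the nuclear scale, none changed direction where either fit called it; 838 of the alternative values stayed on their side of the threshold, 29 passed newly and 4, all of COX4I1, no longer passed. A fit without a replicate term cannot apply to the replicate comparison. Depth limits genes with few reads, such as ATP5MGL with 1 or 2 reads per bulk library.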

Other observations

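Identifiers that carry a matching symbol but are not protein-coding genes were also read out, 180 in all, of which 51 were listed at 0 in every library. The pseudogene COX6CP1 was at 20.7 to 62.9 TPM in the sorted libraries and 1.53 to 1.68 TPM in bulk, whereas COX6C itself was at 11.5 to 21.3 TPM in the sorted libraries and 69.3 to 77.1 TPM in bulk. COX6CP1 was thus above COX6C in the medians of the sorted libraries (37.4 against 14.6 TPM) and below it in each bulk library. The pseudogene COX6A1P2 went the other way, at 1.02 to 7.34 TPM in the sorted libraries and 29.5 to 35.4 TPM in bulk. COX5BP6 was at 1.56 to 11.0 TPM in bulk, where its parent gene COX5B was listed at 0. How reads that fit more than 1 copy were assigned is not stated. These genes were chosen after their values were seen.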
